A study of Rattus norvegicus with 6 samples.

Results

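The genes described here encode 9 enzymes of early cholesterol synthesis, Acat2, Hmgcs1, Mvk, Pmvk, Mvd, Idi1, Fdps, Fdft1 and Sqle. They were chosen by symbol as the steps between acetyl-CoA and squalene epoxide, and each matched 1 of the 25926 features in a table of liver RNA-seq. The samples were livers of 3 rats given total parenteral nutrition (TPN, a feed infused into a vein) for 7 days and of 3 control rats given 0.9% saline. All were Sprague-Dawley rats labelled 4 weeks old, the TPN rats carried the disease state PNALD and the controls were labelled normal. What the control rats ate, the make-up of the infused feed, the sex of the rats and the hour and feeding state at which liver was taken are not stated in the labels used here. Values are FPKM, which scale fragments by transcript length and library total. The table holds no counts, so library depth is unknown.

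Liver makes cholesterol from acetyl-CoA, and the early part of the route leads through mevalonate to the isoprene units from which squalene is built. The same isoprene units feed side branches that make dolichol, coenzyme Q and the lipid anchors of prenylated proteins. The transcription factor SREBP2, which is held in the endoplasmic reticulum when sterols are plentiful, is known to drive the genes of this route together, and feeding, insulin and the time of day also move them in rodent liver.

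All 9 enzyme genes had lower levels in TPN liver than in control liver. By the ratio of mean FPKM the difference ran from 2.36-fold lower for Mvk to 6.28-fold lower for Hmgcs1, with a median of 3.55-fold. In every one of the 9 the highest TPN rat lay below the lowest control rat, a pattern that 9.09% of the 11362 features tested shared. The median log2 fold change of the 9, on the log2(FPKM + 1) scale, was -1.75, beside 0.0065 for all features tested, of which 49.1% were negative. In a limma fit over all features 1 of the 9, Mvd, passed a Benjamini-Hochberg adjusted p of 0.05, where 0.220% of all features passed as lower. The other 8 had limma adjusted p from 0.0564 to 0.213, and all 9 had an unadjusted p under 0.05, as had 7.01% of all features in the lower direction (and 4.44% in the higher). In whole liver, fewer cells of a type and less RNA per cell cannot be told apart.

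**Figure D1:**
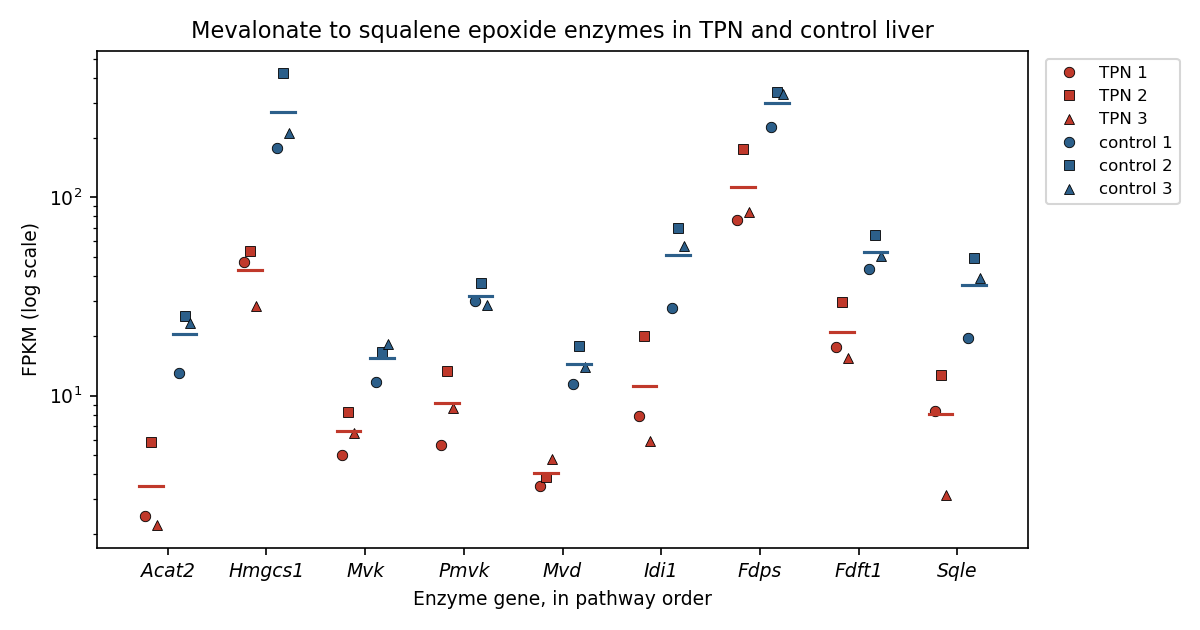
FPKM of each enzyme gene in each rat on a log axis, with TPN rats in red to the left, control rats in blue to the right and a bar at the mean of 3 rats. For every gene the red points lie below the blue ones, closest for Fdps, where the highest TPN rat had 176 FPKM and the lowest control rat 227 FPKM.

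Promoters are shown for 4 of the genes, as background, because SREBP2 is known to act beside the CCAAT-binding factor NF-Y. Whether either factor had a part in the differences seen here was not tested. RefSeq promoters of the build GRCr8 (250 bases before to 50 after the start of the gene) matched 6 of the 9 by symbol. The capitals mark CCAAT (or ATTGG on the other strand) and CACNCCAC (or GTGGNGTG), a loose form of the sterol element, and each sequence runs 5′ to 3′ along its gene. Mvd is the gene that passed the test, Hmgcs1 had the widest ratio of the 9 and Mvk the narrowest, and Acat2 is the one of the 6 without CCAAT. The windows are chr19:67414925-67415224 on the minus strand for Mvd, chr2:53382054-53382353 on the plus strand for Hmgcs1, chr12:47819454-47819753 on the minus strand for Mvk and chr1:50100590-50100889 on the plus strand for Acat2.
Mvd: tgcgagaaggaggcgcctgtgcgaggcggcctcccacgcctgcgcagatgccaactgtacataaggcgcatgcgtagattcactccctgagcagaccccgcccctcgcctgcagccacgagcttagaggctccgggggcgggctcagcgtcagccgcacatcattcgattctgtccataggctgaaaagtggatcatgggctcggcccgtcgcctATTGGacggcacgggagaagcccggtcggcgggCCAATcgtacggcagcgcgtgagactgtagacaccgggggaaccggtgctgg
Hmgcs1: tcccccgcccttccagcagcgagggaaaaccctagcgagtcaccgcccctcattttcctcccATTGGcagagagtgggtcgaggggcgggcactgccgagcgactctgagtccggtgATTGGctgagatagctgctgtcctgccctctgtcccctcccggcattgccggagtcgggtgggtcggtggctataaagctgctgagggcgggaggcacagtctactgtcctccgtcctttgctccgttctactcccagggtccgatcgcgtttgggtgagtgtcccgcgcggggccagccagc
Mvk: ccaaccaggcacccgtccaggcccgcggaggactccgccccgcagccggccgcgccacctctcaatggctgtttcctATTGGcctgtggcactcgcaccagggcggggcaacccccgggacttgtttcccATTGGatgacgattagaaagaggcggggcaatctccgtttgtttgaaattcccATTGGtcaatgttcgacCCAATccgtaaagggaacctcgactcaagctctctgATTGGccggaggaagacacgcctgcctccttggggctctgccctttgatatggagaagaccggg
Acat2: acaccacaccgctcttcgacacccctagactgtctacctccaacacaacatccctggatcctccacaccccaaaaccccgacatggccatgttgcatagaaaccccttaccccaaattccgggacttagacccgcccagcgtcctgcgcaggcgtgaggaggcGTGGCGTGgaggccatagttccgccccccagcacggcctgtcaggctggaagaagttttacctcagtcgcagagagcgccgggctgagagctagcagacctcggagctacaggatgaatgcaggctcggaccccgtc

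CCAAT stood at least once, on either strand, in 5 of the 6 promoters (Hmgcs1, Mvk, Mvd, Idi1 and Fdps), and in 37.5% of the 33469 promoters of the same length in the table. Each of these 5 held it 2 or more times, as did 11.2% of all promoters. Mvk held 5 copies, a number that 0.218% of all promoters reached, and 1 of 10 promoters of late sterol enzymes. The gap from Mvk to its head-to-head neighbour Mmab is 254 bases. Most of this window thus lies between both genes, and the copies cannot be assigned to Mvk alone. Among the promoters of late sterol enzymes 8 of 10 held CCAAT, and among those of enzymes on the isoprenoid side branches 6 of 15. GGGCGG, the box bound by Sp1, stood in 5 of the 6 and in 33.1% of all promoters, with no copy in Idi1. It was also in 9 of 10 late sterol promoters and in 10 of 15 on the isoprenoid side branches. The stricter sterol element TCACNCCAC, which contains CACNCCAC, was in none of the 6 windows and in 1.12% of all promoters, and CACNCCAC alone was in Acat2 and in 5.8% of all promoters. These are matches of letters in a short window and not measured binding.

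The first reactions join acetyl-CoA units into HMG-CoA. Acat2, the cytosolic thiolase that makes acetoacetyl-CoA, had 2.46, 5.83 and 2.22 FPKM in TPN rats 1, 2 and 3, against 13.04, 25.1 and 23.1 FPKM in control rats 1, 2 and 3. The lowest control rat had 2.24 times the level of the highest TPN rat. Its mean was 3.51 ± 2.02 FPKM in TPN liver and 20.4 ± 6.47 FPKM in control liver (SD, n = 3 each), a log2 fold change of -2.29 (SE 0.35, 95% interval -3.11 to -1.46) with limma adjusted p = 0.0751. Hmgcs1, the cytosolic HMG-CoA synthase, had 46.95, 53.8 and 28.3 FPKM in the TPN rats, against 178, 422 and 211 FPKM in the control rats. Control rat 2 stood well above the other control rats, which in turn stood above all TPN rats. The means were 43.003 ± 13.2 FPKM in TPN and 270.2 ± 132 FPKM in control (SD, n = 3 each), with a log2 fold change of -2.57 (95% interval -3.43 to -1.70, SE 0.37, limma adjusted p = 0.0564). Without control rat 2 it was -2.20, with limma adjusted p = 0.0438, so that Hmgcs1 passed in that fit.

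Acat2 has a mitochondrial relative that serves ketone bodies and amino acid breakdown, and its levels overlapped between the groups. This gene, Acat1, had 62.5, 135 and 154 FPKM in TPN and 114, 66.1 and 121 FPKM in control (limma adjusted p = 0.917). The log2 ratio of Acat2 to Acat1 within a rat averaged -5.10 ± 0.88 in TPN and -2.30 ± 0.87 in control (SD, n = 3 each; exact permutation p = 0.1, 2-sided). The ratio did not overlap between groups, and 0.1 is the smallest p that 3 against 3 rats can give. Over the 2 ratios reported in this way (the other sets Fdps against a branch enzyme) the adjusted p was 0.1 for each. Acat2 and Fdps alone did not overlap between groups either, so the ratios are not separate support. Acat2l1, a gene named as a near copy of Acat2, had 1.10, 1.92 and 1.38 FPKM in TPN and 3.39, 6.87 and 6.14 FPKM in control. How reads shared by near copies were counted is not stated, so the split between Acat2 and Acat2l1 is uncertain.

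Next, 2 kinases and a decarboxylase turn mevalonate into isopentenyl diphosphate. Mvk, mevalonate kinase, had 5.01, 8.28 and 6.49 FPKM in TPN rats 1, 2 and 3, against 11.7, 16.7 and 18.2 FPKM in control rats. The means were 6.59 ± 1.64 FPKM in TPN and 15.5 ± 3.38 FPKM in control (SD, n = 3 each), and the log2 fold change of -1.12 (limma adjusted p = 0.135, SE 0.22) was the nearest to 0 of the 9. Pmvk, phosphomevalonate kinase, had 5.66, 13.2 and 8.69 FPKM in TPN and 30.1, 36.8 and 28.7 FPKM in control. The control rats were close together, with a coefficient of variation of 13.6%, and the TPN rats were spread over 41.5%. Pmvk had a log2 fold change of -1.75 (limma adjusted p = 0.0738, SE 0.27). Mvd, mevalonate diphosphate decarboxylase, had 3.503, 3.87 and 4.79 FPKM in TPN, against 11.5, 17.7 and 14.0 FPKM in control. Of the 9 genes, Mvd had the tightest TPN rats, with a coefficient of variation of 16.3%, and the groups stood 2.39-fold apart at their nearest rats. In TPN liver Mvd fell by 1.59 on the log2(FPKM + 1) scale (SE 0.19, 95% interval -2.04 to -1.15, limma adjusted p = 0.0391). That call did not hold in every fit, and the adjusted p was 0.0644, 0.118 and 0.106 without TPN rat 1, 2 or 3, and 0.0653 and 0.1001 without control rat 1 or 3. It was 0.0438 without control rat 2.

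**Figure D2:**
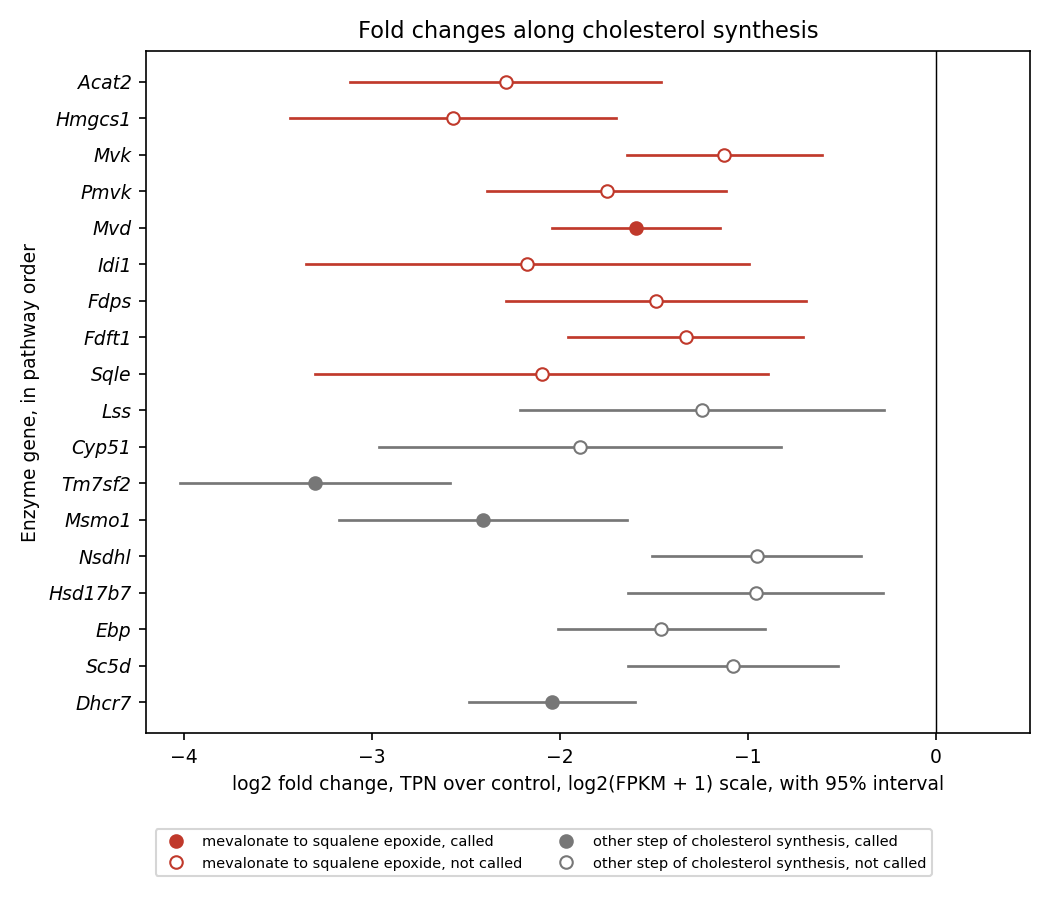
Log2 fold changes (TPN over control, log2(FPKM + 1) scale) with 95% intervals from limma, in the order of the pathway, with filled points for genes at an adjusted p under 0.05. The 9 early enzyme genes run from -2.57 for Hmgcs1 to -1.12 for Mvk, all with intervals below 0, and Mvd is the filled point among them.

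Mvk stands head to head with Mmab, an adenosyltransferase of vitamin B12 metabolism, in the RefSeq table. Mmab had 2.25, 2.34 and 2.18 FPKM in TPN and 3.28, 3.73 and 4.07 FPKM in control. The groups did not overlap, with a log2 fold change of -0.52 (limma adjusted p = 0.220, SE 0.14). Of 7 tested nearest neighbours of the 9 genes none passed the limma test and 1, Mmab, had an unadjusted p under 0.05. By that annotation, of another build than the table's, 5 of the 9 (Acat2, Hmgcs1, Idi1, Fdps and Fdft1) overlap another gene. Strandedness is not stated, so reads of the pairs may not have been told apart. Wdr37, which overlaps Idi1, had a log2 fold change of 0.0067 (limma adjusted p = 0.990).

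The isoprene units are then isomerised and joined. Idi1, the isopentenyl diphosphate isomerase, had 7.86, 19.9 and 5.87 FPKM in TPN, against 27.6, 69.8 and 56.6 FPKM in control. TPN rat 2 and control rat 1 came within 1.39-fold of each other, and the TPN rats varied by 67.7% of their mean, the widest spread among the 9. It had a log2 fold change of -2.17 (95% interval -3.35 to -0.99, SE 0.50, limma adjusted p = 0.197). Fdps, the farnesyl diphosphate synthase, was the most abundant of the 9 by mean, with 76.6, 176 and 84.4 FPKM in TPN and 227, 339 and 333 FPKM in control. TPN rat 2 stood apart from the other TPN rats and came within 1.29-fold of control rat 1, the narrowest gap of the 9. The means were 112 ± 55.3 FPKM in TPN and 299.6 ± 63.2 FPKM in control (SD, n = 3 each; limma adjusted p = 0.180, log2 fold change -1.49, SE 0.35).

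Farnesyl diphosphate is the branch point between sterols and the other isoprenoids. Ggps1, which extends it to geranylgeranyl diphosphate, had 1.87, 2.05 and 3.06 FPKM in TPN and 2.25, 2.19 and 2.52 FPKM in control (limma adjusted p = 0.984, log2 fold change -0.014, SE 0.17). The log2 ratio of Fdps to Ggps1 averaged 5.52 ± 0.83 in TPN and 6.99 ± 0.31 in control, without overlap (SD, n = 3 each, exact permutation p = 0.1). As Fdps alone did not overlap and Ggps1 differed little, this ratio largely restates the difference in Fdps. Among 19 genes of these branches, which include the prenyltransferases, the dolichol enzymes and the first coenzyme Q enzymes, 8 had negative and 11 positive log2 fold changes, with a median of 0.062 and a range of -0.36 to 0.36. None of the 19 passed the limma test or an unadjusted p under 0.05.

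Squalene is made and oxidised by the last 2 of the enzymes. Fdft1, squalene synthase, had 17.6, 29.6 and 15.5 FPKM in TPN, against 43.3, 64.7 and 50.4 FPKM in control. Its means were 20.9 ± 7.61 FPKM in TPN and 52.8 ± 10.9 FPKM in control (SD, n = 3 each), with a log2 fold change of -1.33 (limma adjusted p = 0.137, SE 0.27). Sqle, squalene epoxidase, a slow step that is strongly controlled by sterols, had 8.38, 12.6 and 3.17 FPKM in TPN, against 19.5, 49.7 and 39.1 FPKM in control. TPN rat 3 stood at 8.77% of the control mean and TPN rat 2 at 35.01%, while control rat 1 stood at 54.0%. It had a log2 fold change of -2.10 (95% interval -3.30 to -0.89, SE 0.51, limma adjusted p = 0.213), the highest adjusted p of the 9 beside one of the wider ratios, 4.48-fold between means.

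Most of the 9 genes shared their lowest and highest control rat and their highest TPN rat, but not a full order of rats. Control rat 1 was the lowest control rat in 8 of the 9, all but Pmvk, and control rat 2 the highest in 8, all but Mvk. Among TPN rats, rat 2 was the highest in 8, all but Mvd, and the lowest was rat 1 in 4 genes and rat 3 in 5. How many of all features share these extremes was not computed. The summed FPKM of the 9 was 174, 323 and 159 in TPN rats 1, 2 and 3, against 561, 1041 and 775 in control rats 1, 2 and 3. That is 0.0422% ± 0.0176 of all FPKM in TPN and 0.151% ± 0.048 in control (SD, n = 3 each).

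The make-up of that sum also differed. Fdps and Hmgcs1 were the most abundant pair in all 6 rats, with Fdps first in 5 and Hmgcs1 first in control rat 2. Fdps held 50.5% ± 5.65 of the sum in TPN and 38.7% ± 5.44 in control, and Hmgcs1 20.4% ± 5.67 in TPN and 33.1% ± 6.74 in control (SD, n = 3 each). Fdft1 held 9.67% ± 0.48 in TPN and 6.81% ± 0.80 in control, Mvk 3.17% ± 0.79 in TPN and 2.02% ± 0.38 in control, and Acat2 1.54% ± 0.23 in TPN and 2.57% ± 0.36 in control. For these 5 genes the shares did not overlap between groups, and for Pmvk, Mvd, Idi1 and Sqle they did. Shares of one sum are tied to each other, so these are not separate results. Acat2 stood last of the 9 in 2 TPN rats and at place 7 in all 3 control rats. Of the 36 log2 ratios between pairs of the 9 within a rat (pairs that share genes, so not independent), 10 did not overlap between groups. In 7 of these 10 Acat2 or Hmgcs1, the genes with the widest ratios between group means, stood over another gene. The share of separated pairs among other features was not computed, and for 3 against 3 rats the smallest exact permutation p is 0.1. The log2 ratio of Hmgcs1 to Mvk was 3.23, 2.70 and 2.13 in the TPN rats and 3.92, 4.66 and 3.54 in the control rats, and that of Acat2 to Fdft1 was -2.84, -2.34 and -2.80 in the TPN rats and -1.73, -1.37 and -1.12 in the control rats. These ratios were looked at together and given as a description, without a test.

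**Figure D3:**
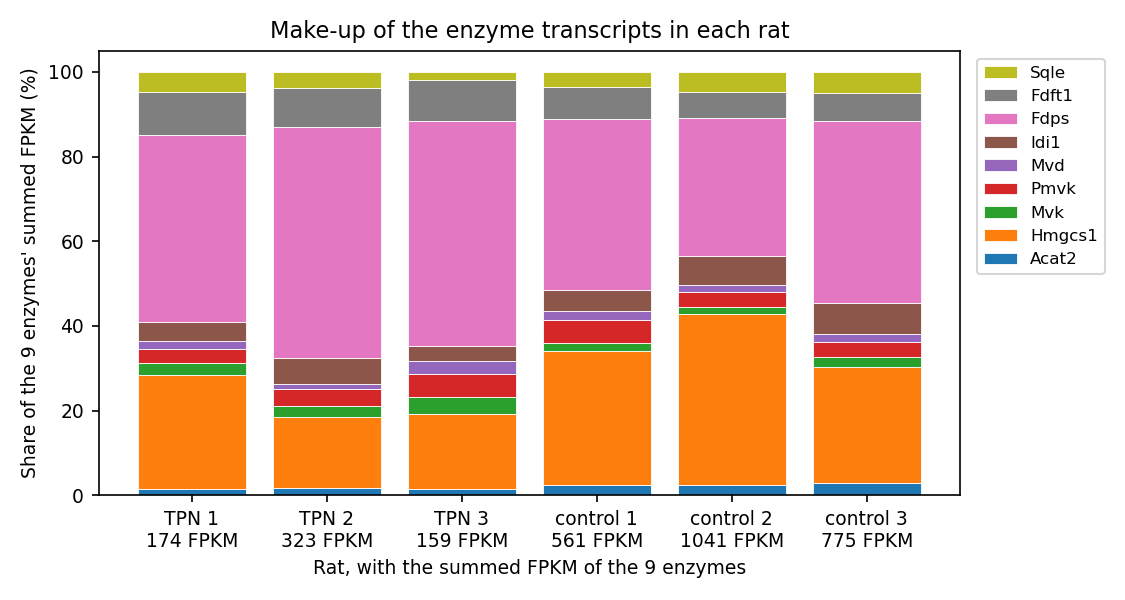
Share of each enzyme gene in the summed FPKM of the 9 in each rat, TPN rats at the left, with the sum under each bar. Fdps takes 44.0% to 54.5% in TPN rats and 32.6% to 43.0% in control rats, and Hmgcs1 takes 16.6% to 27.0% in TPN rats and 27.3% to 40.5% in control rats.

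Upstream, all 4 tested genes of cytosolic acetyl-CoA supply had negative log2 fold changes (median -1.28) and no overlap between groups, and none passed the limma test, with 4 at an unadjusted p under 0.05. Acss2, which makes acetyl-CoA from acetate, had 4.30, 13.01 and 11.9 FPKM in TPN and 37.1, 41.3 and 42.3 FPKM in control (limma adjusted p = 0.0882). Acly, which cleaves citrate, had 15.4, 41.3 and 36.4 FPKM in TPN and 61.5, 50.5 and 91.4 FPKM in control (limma adjusted p = 0.338). Aacs, which activates acetoacetate, had 0.794, 0.537 and 0.861 FPKM in TPN and 2.29, 6.68 and 2.58 FPKM in control (limma adjusted p = 0.182). Downstream, all 10 late sterol enzyme genes had negative log2 fold changes (median -1.35), 9 without overlap, and 3 passed the limma test, Tm7sf2, Msmo1 and Dhcr7. Lss, which closes squalene epoxide into lanosterol and so follows Sqle, was the one with overlap, at 4.75, 13.1 and 8.96 FPKM in TPN and 24.2, 12.7 and 30.3 FPKM in control (limma adjusted p = 0.338). The 15 tested genes of sterol sensing and uptake had a median of -0.45, with 11 negative, 7 of them lower without overlap and none past the limma test (7 at an unadjusted p under 0.05, all lower). Srebf2, which encodes SREBP2, had 7.91, 8.37 and 8.27 FPKM in TPN and 11.7, 12.6 and 11.8 FPKM in control (limma adjusted p = 0.225, log2 fold change -0.51, SE 0.13). The 6 paralogs in thiolase and HMG-CoA reactions had a median of -0.055, with none past the limma test and none at an unadjusted p under 0.05. Of 8 genes of cholesterol use and esterification 5 were negative (median -0.29), none passed, and 1 in each direction had an unadjusted p under 0.05. The difference between these medians was not tested.

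**Figure D4:**
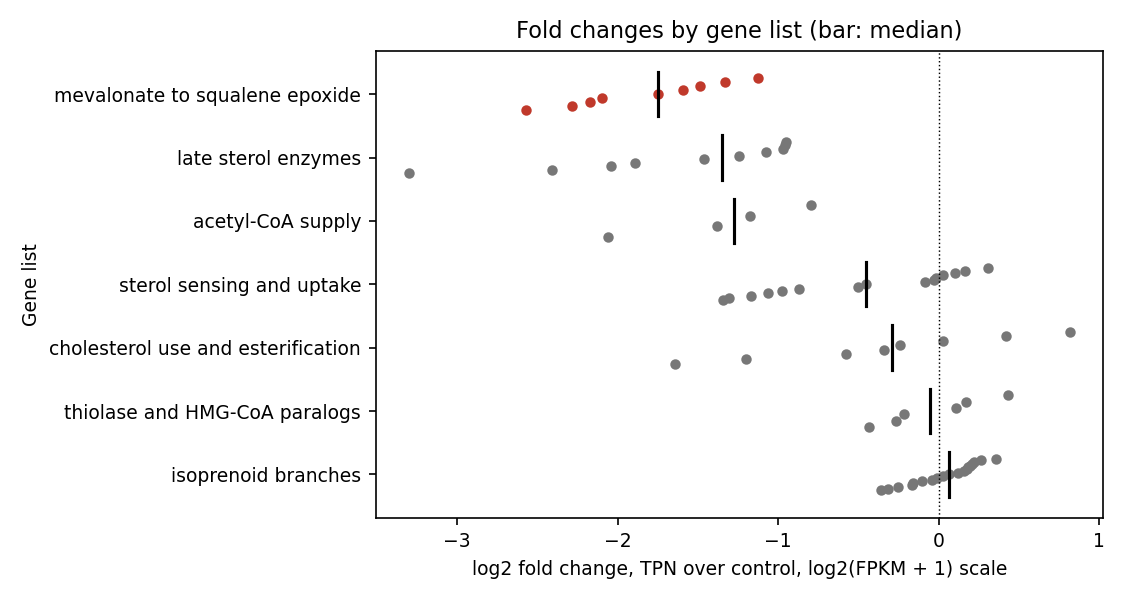
Log2 fold changes (TPN over control, log2(FPKM + 1) scale) of the tested genes of each list, 1 point a gene, spread vertically to be legible, with a bar at the median. The early enzymes (median -1.75) lie wholly below 0, as do the late sterol enzymes (-1.35) and acetyl-CoA supply (-1.28), and the isoprenoid branches (0.062) lie on both sides of 0.

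Genes whose levels followed the 9 most closely were sought among 6362 other features averaging at least 5 FPKM, by the Pearson correlation of log2(FPKM + 1) with the mean z-score of the 9 over the 6 rats. The 10 highest had r from 0.965 to 0.984. Among them were the late sterol enzymes Sc5d, Msmo1, Ebp and Cyp51, and 4 genes of no list used here. These 4 were Amacr, a racemase of branched-chain fatty acid and bile acid precursors, with 157, 173 and 139 FPKM in TPN and 200.1, 239.6 and 229 FPKM in control, and Selenoh, Marcksl1 and Dpy19l3. The correlation rests largely on the gap between the groups, and 6 rats are few.

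Other measures moved with the groups or with single rats, and their part in the result was not tested. The mean log2(FPKM + 1) of 16 acute-phase genes was 11.9, 10.4 and 10.3 in TPN rats 1, 2 and 3 and 9.07, 10.9 and 9.33 in control rats 1, 2 and 3, so control rat 2, high in the 9 enzymes, was also the high control rat here. None of the 16 passed (3 higher at an unadjusted p under 0.05). With this score as a covariate the median of the 9 was -1.69 and Mvd no longer passed (limma adjusted p = 0.0982). A clock score (the mean log2(FPKM + 1) of Per1, Per2, Per3, Dbp, Hlf and Tef less that of Clock, Npas2 and Arntl) was -0.998, 0.13 and 2.07 in TPN rats 1, 2 and 3 and -1.18, -0.12 and 1.78 in control rats 1, 2 and 3, so both groups spanned a similar range. The score rose with the rat number in both groups. With it as a covariate the median was -1.76 and the limma adjusted p of Mvd 0.0193. None of the 10 tested clock genes passed, with 1, Nr1d1, lower at an unadjusted p under 0.05. Nr1d1, which is not in the score, had 4.63, 7.72 and 12.2 FPKM in TPN and 19.3, 20.96 and 33.6 FPKM in control. Its groups did not overlap (limma adjusted p = 0.173), so the score does not cover every clock difference. Erythroid markers, 6 of 8 in the table and none at 0, summed to between 230 and 577 FPKM in TPN and between 2124 and 2417 FPKM in control, with 4 of 5 tested past the limma threshold, all lower. Of 8 cell cycle genes 4 passed, all lower (Rrm2, Mki67, Cdk1 and Ccna2). The sum of all 8 ran from 16.8 to 18.4 FPKM in TPN and from 32.2 to 44.6 FPKM in control. Most of the TPN sum was Pcna, which overlapped between groups, at 12.2, 13.9 and 16.1 FPKM in TPN and 16.05, 10.9 and 15.7 FPKM in control. The 9 hepatocyte markers in the table, Alb and Ttr among them, summed to between 55169 and 76732 FPKM in TPN and between 70735 and 87056 FPKM in control, with 6 negative, none past the limma test and 2 lower at an unadjusted p under 0.05. Of 7 tested markers of Kupffer cells, the resident macrophages of liver, 6 had positive log2 fold changes (median 0.41), none passed the limma test, and Marco, Cd68 and Cd163 were higher at an unadjusted p under 0.05 without overlap between groups. Marco, a scavenger receptor, had 169, 141 and 95.7 FPKM in TPN and 74.0, 67.1 and 62.5 FPKM in control (limma adjusted p = 0.206). The 7 markers summed to between 283 and 434 FPKM in TPN and between 220.2 and 339.9 FPKM in control, so the sums overlapped. Sums that did not overlap were those of 5 bile duct markers, between 6.34 and 8.10 FPKM in TPN and between 10.6 and 13.9 FPKM in control, and of 7 stellate cell markers, between 24.3 and 33.3 FPKM in TPN and between 35.6 and 50.3 FPKM in control. No tested gene of these lists passed the limma test, with the bile duct markers Epcam and Krt19 and the stellate cell marker Lrat lower at an unadjusted p under 0.05. Of the 5 bile duct markers 2 were high enough to test, both negative, and of 6 tested stellate cell markers 5 were negative and 1, Rgs5, positive. Single genes weighed in these sums. Epcam had 3.87, 4.79 and 5.13 FPKM in TPN and 10.1, 5.99 and 8.61 FPKM in control. Lrat had 2.68, 5.24 and 5.86 FPKM in TPN and 15.5, 11.5 and 13.7 FPKM in control. Whether cell content differed was not tested. The sums of the endothelial, T and NK, B, neutrophil, fat and steroid-making cell lists overlapped, and none of their tested genes was at an unadjusted p under 0.05. The fat cell markers Adipoq, Lep and Plin1 and the steroid cell marker Cyp11a1 were listed at 0.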

How the data were processed

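The 6 liver samples were grouped by their titles, 3 TPN and 3 control. TRIzol was used to extract total liver RNA, and library preparation was by a standard Illumina protocol, per the labels' protocols. The submitters' processing notes list Bowtie 0.12.2, Cufflinks and the build Rnor_6.0; which step each served is not stated. The authors deposited 1 table of FPKM, whose column names match the sample titles. Steps of whole reads were not seen among low values (at most 0.853% of the ratios of values under 0.3 FPKM fell in 1 bin of 0.01 on the log2 scale), so depth is unknown and no counting interval is given.

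The 11362 features averaging at least 1 FPKM were tested on log2(FPKM + 1) in R 4.3.3 with limma 3.58.1 and statmod 1.5.0, using trend and robust moderation, group alone in the model, 2-sided tests, and Benjamini-Hochberg adjustment over all features at 0.05. Fold changes of low genes are understated on this scale. The test was checked on simulated data. The labels give no more than 3 rats a group, and p-values measure the spread between them. The 9 genes and the gene lists (185 entries, 172 matched by symbol) were chosen with earlier results of these data known. Named genes were the 9, genes of related lists next to one of them in the pathway, called genes, and the 10 features most correlated with them; some genes of these lists count in totals but are not reported here by name. Promoters are from RefSeq, build GRCr8. Alternatives were other pseudocounts, filters, scalings, moderation, weights, covariates, a replicate block and rats left out. Figures used matplotlib 3.10.9.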

Additional observations from a re-analysis of the deposited data

How the results depend on the processing

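All 9 enzyme genes had negative log2 fold changes under each of the 20 alternatives run, and their median stayed between -2.02 and -1.37, moving by less than the spread between rats. What depended on the processing was which genes passed. The 28 features called (limma adjusted p under 0.05) became 18 and 5 with pseudocounts of 0.1 and 0.01, 6 with a mean of at least 5 FPKM, 8 without trend or robust moderation, 299 with array weights, 1 and 44 with the acute-phase or the clock score as a covariate, and 121 without TPN rat 1 and control rat 2 together. The count was 0 by limma without a filter (671 higher and 1227 lower at an unadjusted p under 0.05), after median-ratio scaling (627 and 952) and after quantile normalisation (764 and 827). Leaving out 1 rat gave 0 to 46 (0 without TPN rat 3, with 390 higher and 1003 lower at an unadjusted p under 0.05). Of the 9, 1 was called as reported, and 0 with a pseudocount of 0.01, no filter, median-ratio scaling, quantile normalisation, moderation without trend or robust settings, or the acute-phase covariate, where all 9 had an unadjusted p under 0.05 by limma. It was 3 with array weights (Mvd, Pmvk and Hmgcs1), 2 without TPN rat 1 and control rat 2 together (Mvd and Hmgcs1), and 0 to 2 with 1 rat left out. Mvd passed in 9 of 20 alternatives, with limma adjusted p from 0.00987 to 0.134, Hmgcs1 in 4, Pmvk in 2, Acat2 in 1 and the other 5 in none. The cause was not tested. With the replicate number as a block, 58 features and 4 of the 9 (Acat2, Mvd, Pmvk and Hmgcs1) passed. Whether the numbers pair the rats is not stated in the labels. Same-numbered rats' deviations from their group means correlated at -0.214, -0.143 and 0.321 over the features tested. The clock score, in contrast, was close between same-numbered rats. With 3 rats a group these values cannot decide on a pairing, and the main fit used group alone. Unknown depth limits what can be said of single rats.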
